A study of Mus musculus with 3 samples.

Results

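The p53 gene Trp53, its relatives Trp63 and Trp73, its inhibitors Mdm2 and Mdm4, and 5 genes that p53 switches on (Ccng1, Sesn2, Zmat3, Trp53inp1 and Ei24) were examined in UMI-RNAseq libraries of NIH3T3 cells. The 10 genes were chosen by name, and each name matched 1 of the 55573 genes in the table. NIH3T3 is an established line of mouse embryonic fibroblasts that became immortal in culture. The 3 libraries, named library 1, library 2 and library 3 after their replicate numbers, share 1 condition. The cells were grown in DMEM with fetal bovine serum and antibiotics, then treated with trypsin and washed before lysis. No other treatment is named. No group could therefore be compared with another, and the questions here are how high each gene stood and how the genes stood to each other. Neither the labels nor the methods say that each library had its own culture, and an SD between them may measure technical variation alone.

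p53 is a transcription factor that is held at a low level in unstressed cells and accumulates after DNA damage and other stress, when it turns on genes for cell cycle arrest, repair or cell death. The protein is kept low mainly by Mdm2, a ubiquitin ligase that marks it for degradation, together with Mdm4, which binds and masks its activation domain. Mdm2 is itself a target of p53, which closes a negative feedback loop. Since much of this control acts on the protein, an mRNA level says little of the amount or activity of p53 protein, which was not measured here.

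The authors deposited FPKM, in which the fragments of a gene are divided by its length in kilobases and scaled to 1000000 counted fragments in the library. Whole fragments were recovered from the FPKM steps, with totals of 14423209, 13959723 and 14307241 fragments in libraries 1, 2 and 3. Among 10 fibroblast markers, 9 reached an FPKM of at least 1 in every library, against 48.5% of protein-coding genes. They were led by the fibronectin gene Fn1 with a mean of 4377 FPKM. S100a4 passed with a mean of only 2.97 FPKM, from 19, 16 and 18 fragments in libraries 1, 2 and 3, whereas Fap had 3 fragments in all. The labels mention retina in their extraction text, but none of 9 retina markers reached that limit, and their summed level lay between 0.562 and 1.31 FPKM, with Pax6 and Nrl at 0. None of 5 epithelial and 5 blood markers reached it either, with summed levels of 0.370 to 0.597 and 0.0720 to 0.288 FPKM. Epcam, Krt18, Cd3e and Itgam were at 0. In such bulk libraries, fewer cells with a transcript and less of it per cell cannot be told apart.

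Of the 10 genes, 8 had an FPKM of at least 1 in every library, a limit that 22.2% of all listed genes and 48.5% of the protein-coding genes of GENCODE M21 passed. The median of the mean FPKM was 43.6 over the 10 genes, 0.804 over protein-coding genes and 0 over all listed genes. The genes below the limit were Trp63 and Trp73. The plot of FPKM by library shows the 8 other genes falling from Mdm2 at the top to Zmat3.

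**Figure D1:**
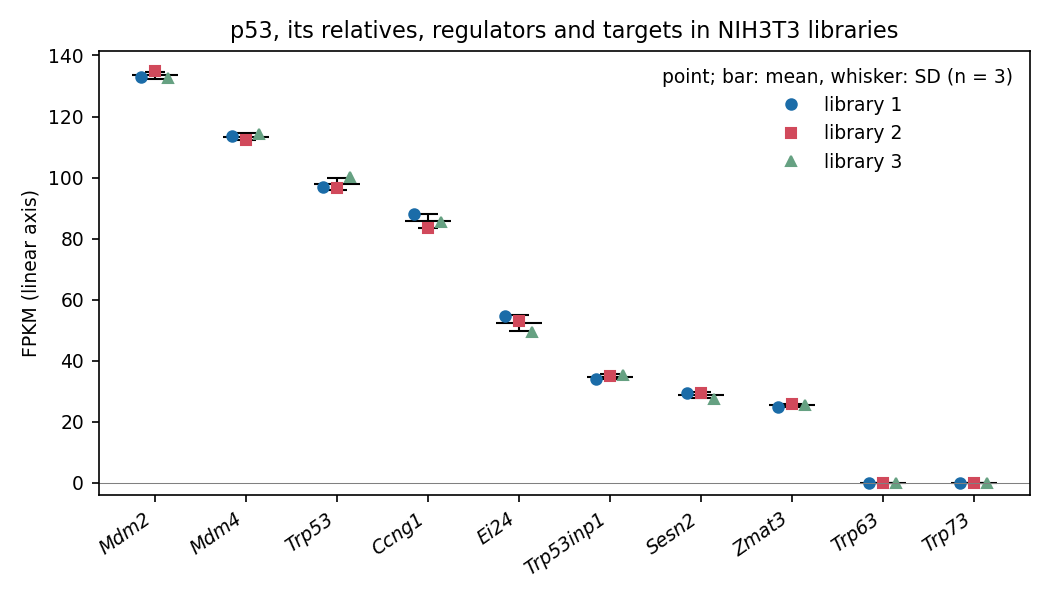
FPKM (vertical, linear axis) of the 10 genes in each library (points), with the mean (bar) and SD (whisker) over 3 libraries. Mdm2, Mdm4 and Trp53 stood highest with means of 133.5, 113.5 and 97.9 FPKM, the libraries of neighbouring genes down to Zmat3 did not overlap, and Trp63 and Trp73 lay at or close to 0.

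The promoters were read for the short sequence to which a pair of p53 subunits binds, since 7 of the 10 genes (Trp53, Trp73, Mdm2, Mdm4, Ccng1, Sesn2 and Ei24) had an entry in the RefSeq promoter table of GRCm38.p6. Each entry spans 300 bases, from 250 before to 50 after a transcription start, and the 7 genes had 9 such windows. The p53 decamer consensus, which reads the same on both strands, matched in 4 of these windows, those of Trp53, Mdm2, Ccng1 and Ei24. Over the whole table it matched in 8.36% of 32851 windows. The matches are shown because they mark the letters that p53 is known to recognize, in capitals, with 10 bases on each side, read 5′ to 3′ on the strand of the gene.
Trp53: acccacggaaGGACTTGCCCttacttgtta
Mdm2: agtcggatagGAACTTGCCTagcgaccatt
Ccng1: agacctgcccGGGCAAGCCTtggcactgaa
Ei24: cgtgcggcccGGGCATGCCCagtgtgggcg
The decamer began 75 bases before the start in Trp53 (shown stretch chr11:69580274-69580303, plus strand) and 186 bases before it in Mdm2 (chr10:117710925-117710954, minus strand). In Ccng1 it began 185 bases before the start (chr11:40755452-40755481, minus strand), and in Ei24 10 bases before it (chr9:36797325-36797354, minus strand). Only single decamers were counted, and not the pairs of decamers that make up a full p53 site. These are matches of letters and not measured binding sites, and functional p53 sites outside these windows, such as those in introns, were not searched.

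Trp53 (ENSMUSG00000059552, chr11:69580359-69591873 of GRCm38, plus strand, protein coding) had 96.9, 96.5 and 100.3 FPKM in libraries 1, 2 and 3. They differed by a factor of 1.04 at most, with a mean of 97.9 ± 2.10 (SD, n = 3) that gave it place 1240 of 12905 genes whose mean reached 1 FPKM. This rests on 2540, 2449 and 2609 fragments. The processed pseudogene Trp53-ps, which shares 1.09% of the distinct 75-nt words of Trp53, had 17, 14 and 19 fragments, so it took few fragments beside the gene. With the deposited lengths, the protein-coding genes with the level most like that of Trp53 were Gmfb, March6 and Mlf2. Their log2(FPKM + 1) differed from that of Trp53 by at most 0.01, 0.02 and 0.02 in any of the 3 libraries. Other lengths were not tried for Gmfb, March6 and Mlf2, and the place of Trp53 among all genes also rests on the deposited lengths.

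Trp63 (ENSMUSG00000022510, chr16:25683763-25892102, plus strand) encodes p63, known for its role in stratified epithelia. It had 0, 0.0201 and 0.0196 FPKM in libraries 1, 2 and 3, from 0, 1 and 1 fragments. A count of 0 in library 1 allows up to 3 fragments, or 0.0583 FPKM. Trp73 (ENSMUSG00000029026, chr4:154056253-154140208, minus strand) encodes p73, known from the nervous system and multiciliated cells. It was at 0 FPKM in libraries 1 and 2 and at 0.0285 in library 3, from 1 fragment. The relatives of p53 could thus not be distinguished from each other at this depth, and exact Poisson 95% intervals over the libraries ran from 0.00159 to 0.0474 FPKM for Trp63 and from 0.000242 to 0.0533 for Trp73. These intervals and the limits for a count of 0 cover counting error only. Per length, Trp53 stood 7456-fold above Trp63, with an exact Clopper-Pearson 95% interval from 2063 to 61577. Against Trp73 the ratio was 10239, with an interval from 1837 to 404484. With the limit of 3 fragments in the libraries at 0, Trp53 was at least 1662-fold higher than Trp63 in library 1 and at least 1100.1-fold higher than Trp73 in libraries 1 and 2. Trp63 shared 0% of its words with another annotated gene, while Trp73 shared 3.65%, all with the antisense gene Trp73os, which had 1 fragment in all.

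Among the inhibitors, Mdm2 (ENSMUSG00000020184, chr10:117688875-117710758, minus strand) had 132.9, 134.8 and 132.7 FPKM in libraries 1, 2 and 3, the highest level of the 10 genes. Its mean was 133.5 ± 1.15 (SD, n = 3), from 3230, 3171 and 3200 fragments. Mdm4 (ENSMUSG00000054387, chr1:132959484-133030561, minus strand) had 113.8, 112.3 and 114.3 FPKM, with a mean of 113.5 ± 1.07 (SD, n = 3). It lay below Mdm2 in each library, without overlap. The ratio of Mdm2 to Mdm4 was 1.17, 1.20 and 1.16, or 0.23 ± 0.03 (SD, n = 3) on the log2 scale. Mdm2 stood above Trp53 by factors of 1.37, 1.40 and 1.32, and Mdm4 stood above Trp53 by 1.17, 1.16 and 1.14. All of these differences were larger than the spread between libraries. The direction of the ratios to Trp53 depends on the gene length behind the FPKM, as described further on, while Mdm2 lay above Mdm4 with each of the 3 lengths tried. The pseudogene Mdm4-ps shares 3.74% of the words of Mdm4 and had 3 fragments in all. Mdm2 shared 0.535% of its words with 34 other genes.

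Among the targets Ccng1, Ei24, Trp53inp1, Sesn2 and Zmat3, the highest level was that of Ccng1 (ENSMUSG00000020326, chr11:40748552-40755311, minus strand). This gene encodes cyclin G1, which recruits a phosphatase to Mdm2. It had 88.1, 83.6 and 85.3 FPKM, each below Trp53 in the same library, and a mean of 85.7 ± 2.27 (SD, n = 3). The ratio of Ccng1 to Trp53 was 0.909, 0.866 and 0.851. Ei24 (ENSMUSG00000062762, chr9:36779159-36797393, minus strand), which encodes a membrane protein of the endoplasmic reticulum involved in autophagy, had 54.7, 53.2 and 49.4 FPKM. Library 3 was the lowest, and the mean was 52.4 ± 2.72 (SD, n = 3), or 0.536 ± 0.0383 times Trp53. The annotation of Ei24 overlaps that of the antisense gene Gm26787 over 324 exonic bases, and Gm26787 had 1 fragment in all. Whether strand was used in counting is not given in the sources used here.

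The other targets stood lower with the deposited lengths. Trp53inp1 (ENSMUSG00000028211, chr4:11156431-11174379, plus strand), whose nuclear protein acts in the stress response and in autophagy, had 33.9, 34.9 and 35.4 FPKM with a mean of 34.7 ± 0.790 (SD, n = 3). Sesn2 (ENSMUSG00000028893, chr4:132492032-132510501, minus strand), which encodes a sestrin that restrains mTORC1, had 29.4, 29.4 and 27.6 FPKM with a mean of 28.8 ± 0.996 (SD, n = 3). Zmat3 (ENSMUSG00000027663, chr3:32334792-32366014, minus strand), which encodes an RNA-binding zinc finger protein, had 24.8, 25.9 and 25.6 FPKM with a mean of 25.4 ± 0.553 (SD, n = 3). Relative to Trp53, these means were 0.355 ± 0.00609 for Trp53inp1, 0.294 ± 0.0163 for Sesn2 and 0.260 ± 0.00709 for Zmat3. All of them lay well below Trp53 in each library.

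With the deposited lengths, the 8 genes kept in each library the order Mdm2, Mdm4, Trp53, Ccng1, Ei24, Trp53inp1, Sesn2, Zmat3. The 7 ratios between neighbours were above 1 in 3 of 3 libraries, and the ranges of neighbouring genes did not overlap. These pairs and the direction of each ratio were set by the mean FPKM of the same libraries. With the deposited lengths, the closest neighbours were Sesn2 and Zmat3, with a log2 ratio of 0.18 ± 0.07 (SD, n = 3), and the widest step lay between Ccng1 and Ei24, with 0.71 ± 0.07. Flipping the signs of the log2 ratios in an exact two-sided permutation test gave p = 0.25 for each of the 7 neighbour ratios and for each of 8 ratios to Trp53 or between Mdm2 and Mdm4, and 0.25 after Benjamini-Hochberg adjustment within each family. No lower p can be reached with 3 libraries, and 0.05 was out of reach for this test. Trp63 and Trp73, both with libraries at 0, were the only neighbours whose ranges overlapped.

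The order rests on the gene length by which fragments were divided. The lengths implied by the FPKM values equalled the mean length of a gene's annotated isoforms in GENCODE M21, so short noncoding isoforms lower the length and raise the FPKM. Mdm2 was divided by 1685 nt, although its 2 protein-coding isoforms among 9 measure 3099 and 3145 nt. Mdm4 was divided by 2158 nt, the mean of 14 isoforms of 467 to 7105 nt, of which 5 are protein coding. Trp53 was divided by 1818 nt, close to its 4 protein-coding isoforms of 1771 to 1867 nt, and Sesn2 has 1 isoform of 3475 nt. With the mean length of the protein-coding isoforms, which was tried only once the levels were known, Trp53 stood highest with 98.4 ± 2.11 FPKM (SD, n = 3), above Mdm2 with 72.0 ± 0.621 and Mdm4 with 69.3 ± 0.652. With the longest isoform, Mdm2 stood first again with 71.5 ± 0.617, Trp53 had 54.3 ± 1.17, and Mdm4 fell to place 4 with 34.5 ± 0.324. In that setting Trp53 and Ccng1 overlapped, with 53.8, 53.6 and 55.7 FPKM for Trp53 against 54.1, 51.4 and 52.4 for Ccng1. The length that applies to the transcripts in these cells was not measured, so the place of Trp53 relative to Mdm2 and Mdm4 and the order of the lower targets are not settled by these values. With the longest isoform, Sesn2 lay above Ei24 in each library, with 29.4, 29.4 and 27.6 FPKM against 25.4, 24.7 and 23.0, and above Trp53inp1, with a mean of 20.9. With the protein-coding isoforms, Zmat3 lay above Trp53inp1 in each library, with 23.1, 24.0 and 23.8 FPKM against 20.5, 21.1 and 21.5. The genes Ccng1, Ei24, Sesn2, Trp53inp1 and Zmat3 stayed below Trp53 with any of these 3 lengths, on the mean over libraries.

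**Figure D2:**
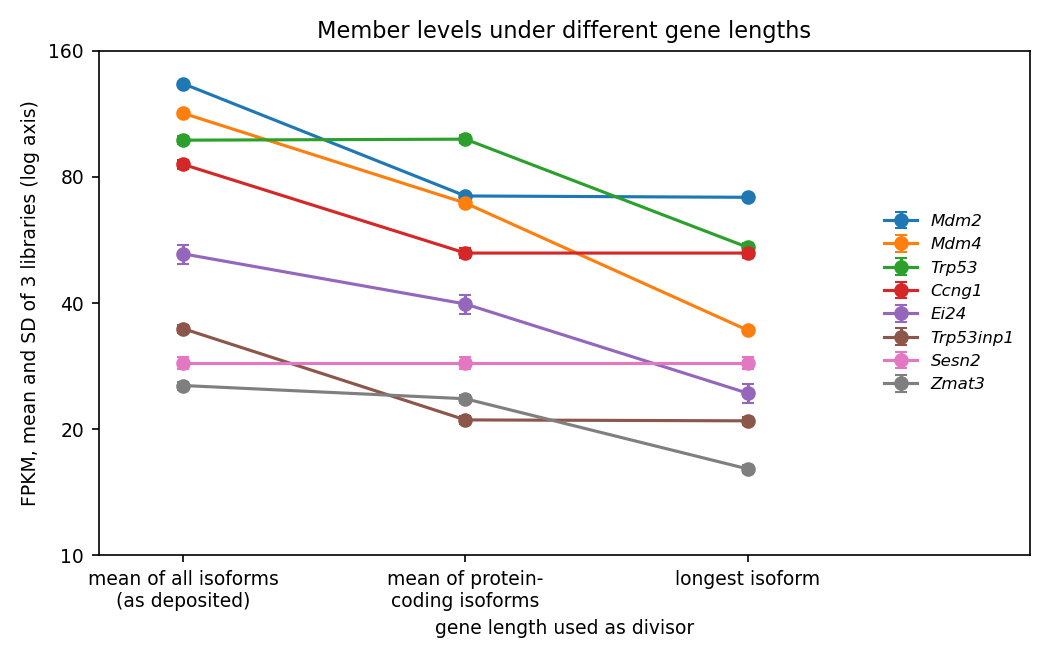
Mean level of the 8 detected genes (vertical, FPKM on a log axis, whiskers show the SD of 3 libraries) with 3 choices of gene length (horizontal). Mdm2 fell from 133.5 to 72.0 and 71.5 FPKM, Mdm4 from 113.5 to 69.3 and 34.5, and Sesn2, with 1 isoform, kept 28.8.

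By fragments alone, Mdm4 had the most of the 10 genes, with 3541, 3382 and 3530, ahead of Mdm2 in each library. Ccng1 followed with 2742, 2518 and 2635, close to Trp53. Zmat3, last by FPKM, had 1764, 1780 and 1807 fragments, more than Trp53inp1 with 1600, 1595 and 1660 and Sesn2 with 1472, 1424 and 1374. Ei24 had the fewest of the 8 genes, with 847, 797 and 759, and its FPKM divides them by the shortest length, 1074 nt. Fragments are not a scale for comparing levels between genes, since longer transcripts give more of them.

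The spread between libraries was set against counting error with a chi-square test of the recovered fragments. This test compares these libraries and not conditions. Of 13643 genes with at least 30 fragments in all, 9.49% had an unadjusted p below 0.05 and 2.02% an adjusted p below 0.05 (Benjamini-Hochberg over all genes tested). Among the 8 detected genes none passed either limit. Ei24 came closest, with an unadjusted p of 0.114 and an adjusted p of 0.666, followed by Ccng1 with 0.157 and 0.720. Leaving out library 2 lowered the unadjusted p of Ei24 to 0.0419, from 847 fragments in library 1 against 759 in library 3. That was the lowest p of the 8 genes over the runs that left out a library. The share of all genes in that run was not set beside it, so it says nothing particular to Ei24. For Mdm2 and Mdm4 the coefficient of variation, 0.862% and 0.941%, was below the 1.77% and 1.69% that counting alone gives. The plot of this spread shows Ei24 with the widest bar, 5.19% against 3.53% from counting. A p that misses the limit does not show that the libraries were equal, and Trp63 and Trp73 had too few fragments to be tested.

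**Figure D3:**
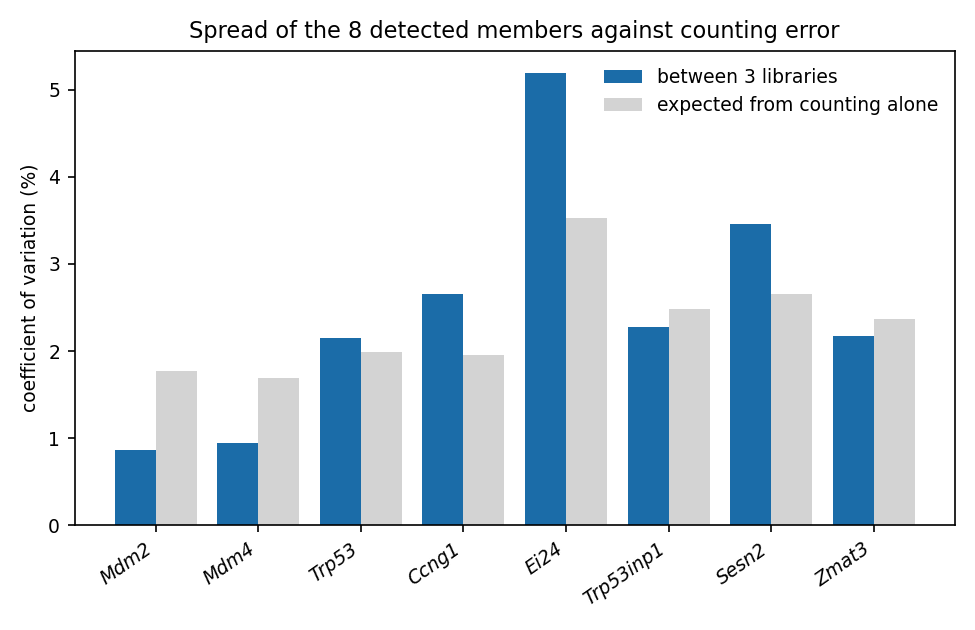
Coefficient of variation in % (vertical) of FPKM between 3 libraries (blue) and the value counting error alone would give (grey) for the 8 detected genes. The values between libraries ran from 0.862% for Mdm2 to 5.19% for Ei24.

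The wider p53 pathway was described with 43 other genes in 5 lists, of which 38 had an FPKM of at least 1 in every library, against 48.5% of protein-coding genes. Their median of mean FPKM was 18.9. The levels of these genes are given with the deposited lengths, and other lengths were not tried for them. Their order, among themselves and against the 10 genes, is therefore not settled. Among the 39 with enough fragments, 8 had an unadjusted p below 0.05 in the chi-square test over libraries, against 9.49% of all genes tested, and 0 an adjusted p below 0.05.

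Of 8 activators, which sense damage or shield p53 from Mdm2, 7 passed the limit, with a median of 14.9 FPKM. Trp53bp1, a protein of DNA break repair that binds p53, was highest with 37.2 ± 0.356 (SD, n = 3), and the damage kinases Atm and Atr had 11.7 ± 0.286 and 21.3 ± 1.01. Cdkn2a, whose Arf product inhibits Mdm2, was listed at 0 in each library, as was its neighbour Cdkn2b, a gene outside the chosen lists. NIH3T3 cells are known for a deletion of this locus, but DNA was not examined here. Why the 2 genes were listed at 0 was not tested. Cdkn2a shared 0% of its words with other genes. Of 6 other brakes on p53, all passed, led by the deubiquitinase gene Usp7 with 148.0 ± 4.17 FPKM (SD, n = 3), which acts on Mdm2 and p53. The ubiquitin ligase genes Cop1 and Rchy1 had 27.0 ± 2.17 and 19.1 ± 0.888 FPKM, and the phosphatase gene Ppm1d had 8.81 ± 1.19.

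Of 9 arrest targets, 7 passed. Plk2 had the highest mean of the 43 genes with 227.1 ± 1.63 FPKM (SD, n = 3). Cdkn1a, which encodes the CDK inhibitor p21, had 142.6, 141.7 and 144.1 FPKM in libraries 1, 2 and 3 and a mean of 142.8 ± 1.22 (SD, n = 3). It shared 7.05% of its words with other genes. Gadd45a had 124.3 ± 1.78, whereas Sfn had 25, 12 and 8 fragments and a mean of 0.651 FPKM, and Rprm was listed at 0.

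Of 10 death targets, 9 passed, with Bbc3 (Puma) at 81.0 ± 6.07 FPKM (SD, n = 3) and Bax at 77.8 ± 1.01. Pmaip1 (Noxa) was far lower with 2.13 ± 0.0581, and Perp, a gene of epithelial cell contacts, was listed at 0. Of 10 repair and metabolism targets, 9 passed, from Phlda3, an inhibitor of Akt, with 164.5 ± 4.72 FPKM (SD, n = 3) down to Tigar with 2.31 ± 0.323. The sestrin genes Sesn1 and Sesn3 had 10.9 ± 0.425 and 16.0 ± 1.17 FPKM, both below Sesn2 with the deposited lengths. Sco2, which encodes a factor for cytochrome c oxidase assembly used widely by cells, was listed at 0. Of its words, 86.2% also occur in Tymp or Ncaph2, whose exons overlap it. Whether reads of Sco2 were present but could not be assigned was not tested. Cdkn2a, Rprm and Perp are likewise given only as listed at 0, although they shared 0% of their words with other genes.

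**Figure D4:**
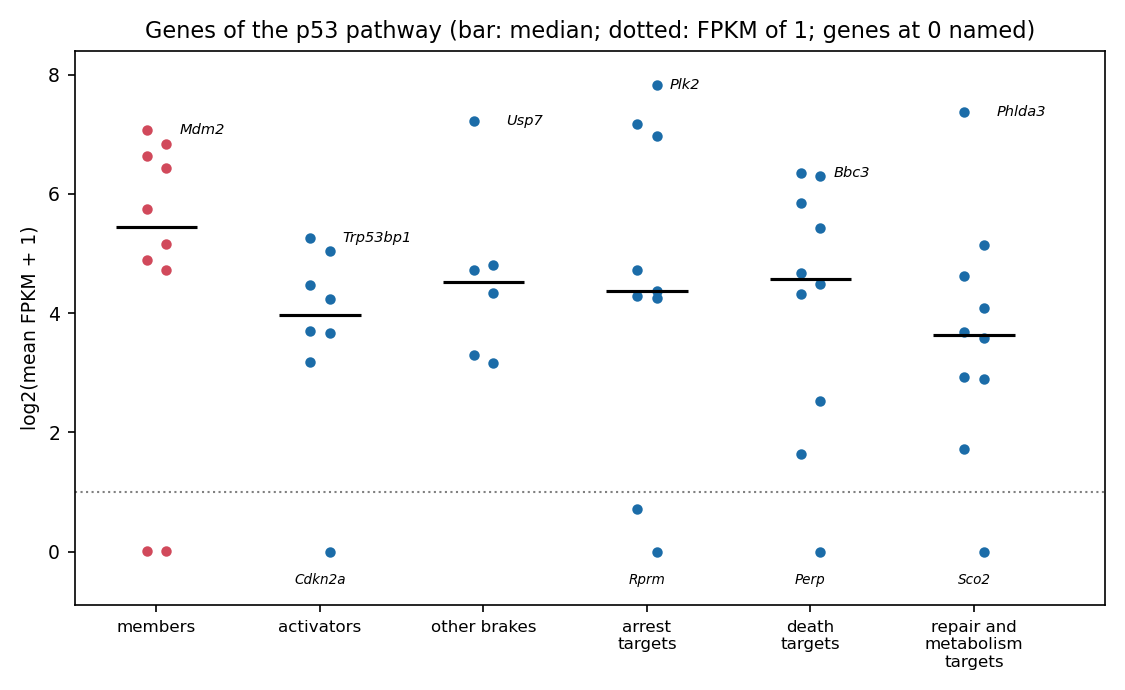
log2(mean FPKM + 1) over 3 libraries (vertical) for the 10 genes (red) and 5 lists of other p53 pathway genes (blue), with the median as a bar, the highest gene of each named and the genes at 0 named below. With the deposited lengths, the highest were Plk2 with 227.1 FPKM, Phlda3 with 164.5 and Usp7 with 148.0.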

How the data were processed

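UMI-RNAseq of 3 NIH3T3 libraries was used. According to the methods and the submitters' processing notes, UMI-tools (1.0.0) found the UMIs, HISAT2 (2.0.4) mapped the reads, copies sharing a position and a UMI were discarded, and HTSeq (0.6.1) counted reads per gene. The authors deposited FPKM values, 1 column per library. The deposited replicates are not pooled. Fragments were summed over the 3 libraries for the intervals of Trp63 and Trp73 and their ratios to Trp53. Such sums also gave the limit of 30 fragments, the expected values of the chi-square test and the spread from counting alone. The genome build and annotation of the counting step are not given in the sources used here. All value columns were used, so 0 were left out.

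Fragments were recovered as FPKM × mean isoform length (GENCODE M21, GRCm38, rounded) × library total, the total being set from single-isoform genes with 1 fragment. Of 26173 genes with fragments found in M21, 99.2% gave whole numbers within 0.01 in every library, and only these were tested for spread. Totals were 13959723 to 14423209 fragments, so 1 fragment is a small step for the detected genes. The recovery and the chi-square test were run on simulated data, Poisson draws turned into FPKM with the same lengths and totals. That run could check the calculation, but not the choice of lengths or the assumption of counting error alone. No count model was fitted, since there is 1 condition. Ratios were taken within libraries and tested with an exact sign-flip permutation test. Log2 values in the pathway plot and in the search for genes like Trp53 use a pseudocount of 1. Python 3.11.15, numpy 2.4.6, pandas 2.3.3, scipy 1.17.1 and matplotlib 3.10.9 were used.

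The genes and lists were chosen with earlier results of these data known. The genes named are the 10 genes, genes of the lists, genes sharing exons or words with them, and the 3 genes nearest to Trp53. Of the retina markers, 1 is not reported here. Cdkn2b, Wrap53 and the other genes whose symbol starts with Trp53 were added outside this rule. Alternatives were other scalings, lengths, pseudocounts, limits on FPKM or fragments, the median, and leaving out each replicate.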

Additional observations from a re-analysis of the deposited data

How the results depend on the processing

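In 244 values recomputed under alternatives, the reversals of a ratio all came from the choice of gene length. With fragments not divided by length, the log2 ratio was -0.12 for Mdm2 to Mdm4, -0.055 for Trp53 to Ccng1 (0.055 for Ccng1 to Trp53), -1.02 for Ei24 to Trp53inp1 and -0.33 for Sesn2 to Zmat3, each reversed. With the longest isoform, it reversed to -0.66 for Mdm4 to Trp53 and to -0.46 for Trp53inp1 to Sesn2. With the mean length of the protein-coding isoforms, added after the data were examined, it reversed to -0.51 for Mdm4 to Trp53, -0.45 for Mdm2 to Trp53 and -0.45 for Trp53inp1 to Sesn2. These reversals follow from the lengths alone, which multiply each gene by a constant. The ratios kept their sign with pseudocounts of 1 and 0.1 and without any replicate, where 2 libraries cannot give a p below 0.5. The number of detected genes was 8 in each alternative run. Leaving out each replicate gave 106 to 192 genes that differed between libraries at an adjusted p below 0.05 in the chi-square test, the lowest without library 1. With all libraries there were 276. Of the 8 detected genes, 0 to 1 had an unadjusted p below 0.05, the 1 being Ei24 without library 2. With all 3 libraries, 9.49% of all genes tested passed this unadjusted limit. The share without a replicate was not set beside the count, so the count says nothing particular to Ei24. TPM scaling multiplies all genes of a library by the same factor, so it changes no ratio within a library. With it, Trp53 had a mean of 141.9 and Mdm2 of 193.4. No paired analysis of conditions was possible because the libraries form a single group. Only genes were paired, by taking their ratios within each library. Depth limits Trp63 and Trp73, which rest on 2 and 1 fragments.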

Other observations

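Besides Trp53 and Trp53inp1, 10 genes in the table carry symbols that start with Trp53, and 7 of them had an FPKM of at least 1 in every library, against 22.2% of all listed genes and 48.5% of protein-coding genes. Trp53inp2, the relative of Trp53inp1 that also acts in autophagy, had 32.6, 33.7 and 32.9 FPKM in libraries 1, 2 and 3. With the deposited lengths, its mean of 33.1 ± 0.565 (SD, n = 3) lay close to the 34.7 of Trp53inp1. Trp53inp1 stood lower with the longest isoform and with the protein-coding isoforms, and other lengths were not tried for Trp53inp2. Whether the levels of Trp53inp1 and Trp53inp2 are alike is therefore not settled. Trp53bp2, which encodes the p53-binding protein ASPP2, had 18.7 ± 0.923 FPKM, and Trp53i13 had 27.0 ± 2.36. The long noncoding RNA gene Trp53cor1 (lincRNA-p21), which lies near Cdkn1a, had 1.46 ± 0.0400 FPKM from 34, 34 and 33 fragments. Trp53rka and Trp53rkb, which encode kinases named for p53, had 9.69 ± 0.534 and 1.37 ± 0.0806 FPKM. Trp53i11 was listed at 0. Wrap53, the neighbour of Trp53 on the opposite strand, had 9.05, 7.20 and 7.59 FPKM, and its annotation in GENCODE M21 does not overlap that of Trp53.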
